A study of Mus musculus with 9 samples.

Results

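The genes described here are the constitutive subunits of the proteasome and the few genes that share their names. They were taken from the array by name, as every gene probe called Psma, Psmb, Psmc or Psmd with a number, leaving out the immunoproteasome subunits Psmb8, Psmb9 and Psmb10. The rule found 37 genes on 45 probes, out of 30157 genes on 39429 probes. Of the 37 genes, 16 encode core particle subunits, 17 encode regulatory particle subunits, and Psmd5, Psmd9 and Psmd10 encode chaperones that help assemble the base of the regulatory particle. The remaining gene, Psmc3ip, meets the rule by its name only. It encodes a cofactor of meiotic recombination and is no proteasome subunit, so it was counted apart.

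C2C12 cells, an established mouse myoblast line that can fuse into myotubes, were treated for 72 h with vehicle, 1 nM or 10 nM calcitriol, the hormonally active form of vitamin D, named 1,25 (OH)2-vitamine D3 in the labels. Each group held 3 biological replicates, and the labels give no genotype, transfection or other agent. The series title calls the cells myotubes. The level of a gene is given throughout as log2 of its probe's signal minus the 75th percentile of that array, so a level of 0 is the brightness that 75% of the probes on the array lie below.

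The proteasome degrades proteins tagged with ubiquitin. Its core particle is a barrel of stacked alpha and beta rings with the proteolytic sites inside, and the regulatory particle caps the barrel: the base, with a ring of ATPases, unfolds the substrate and the lid removes its ubiquitin chain. In skeletal muscle this pathway breaks down myofibrillar proteins, and its subunit genes are known to be transcribed together, with Nfe2l1 as a shared activator when the proteasome is inhibited.

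All 9 arrays showed skeletal muscle cells: 11 of 11 muscle markers, among them Myod1, Myog, Des and Ckm, were well above background on every array. Cyp24a1, the calcitriol-degrading enzyme and a direct target of the vitamin D receptor, rose at 1 nM by 1.29 ± 0.22 (log2, SE; adjusted p = 0.0039) and at 10 nM by 6.13 ± 0.22 (adjusted p = 7.53e-07, limma with Benjamini-Hochberg adjustment). The vehicle replicate 3 array stood apart, with 6124 non-uniform spots against 8 to 56 on the other arrays and with 96.4% of probes well above background against 67.1% to 79.2%. The arrays lay on 3 slides: slide 1 held vehicle 1 and 2, 1 nM 1 and 10 nM 1, slide 2 held vehicle 3, 1 nM 2 and 3 and 10 nM 2, and slide 3 held 10 nM 3 alone. The summed level of the muscle markers was 8.53 to 8.65 in vehicle, 8.86 to 8.97 at 1 nM and 8.87 to 8.95 at 10 nM. That of 6 adipocyte markers was -0.17 to 0.63, 1.48 to 1.56 and 2.60 to 2.70, and that of 6 fibroblast and smooth muscle markers 6.47 to 6.64, 5.99 to 6.12 and 5.60 to 5.83, so both sums moved with dose. Their members did not move together: Fabp4 and Cebpa rose at each dose and Adipoq at 10 nM, while Plin1, Cidec and Pparg were not called, and Dcn and Pdgfra rose at each dose and Lum at 1 nM, while Tagln, Cnn1 and Postn fell at each dose. Of the 11 muscle markers, 6 rose and 0 fell at 1 nM, and 7 rose and 1 fell at 10 nM. The marker that fell was Myog (-0.43 ± 0.07, limma adjusted p = 0.00291). Over all genes, 11.7% and 15.3% were called as higher and 11.8% and 14.7% as lower at the doses. The 5 macrophage markers summed to 4.38 to 4.66, 4.16 to 4.26 and 4.01 to 4.41. The part of these shifts in the results below was not tested, and in bulk RNA a change in the share of a cell type and a change of RNA per cell cannot be told apart.

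Of the 37 genes, 35 could be tested. Psma8, the alpha subunit of the testis proteasome, and Psmb11, the catalytic subunit of the thymus proteasome, were each well above background on 1 of 9 arrays and were not tested. For Psma8 that array was vehicle 3, where its level was -5.08, while the other 8 arrays ran from -9.47 to -8.56. All other members were well above background on 9 of 9 arrays, and none was saturated. The transcripts that define the proteasomes of testis and thymus were thus at or near background in these cells.

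At 1 nM, 7 of the 34 subunit and chaperone genes rose and 0 fell (limma, Benjamini-Hochberg adjusted p of 0.05 over 22053 genes). Over all genes tested, 23.5% were called, 11.7% as higher and 11.8% as lower. The 7 genes were Psmb5, Psmc3, Psmc4, Psmd1, Psmd2, Psmd7 and Psmd8. At 10 nM, 10 rose and 0 fell, where 30.0% of all genes were called, 15.3% as higher and 14.7% as lower. These 10 were Psmb7, Psmc1, Psmc3, Psmc6, Psmd1, Psmd2, Psmd4, Psmd6, Psmd7 and Psmd8. The members that rose made up 20.6% of those tested at 1 nM and 29.4% at 10 nM. The steps were small. The median change of the 34 genes was 0.16 at 1 nM and 0.18 at 10 nM on the log2 scale, against -0.09 and -0.11 for all genes, and the largest was that of Psmd2. The fitted change was above 0 for 31 of 34 genes at each dose, against 40.6% and 40.7% of all genes. The share of all genes above 0 depends on the scaling. Their median change was 0.11 at each dose with quantile normalization and 0.06 in the table deposited by the submitters.

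**Figure D1:**
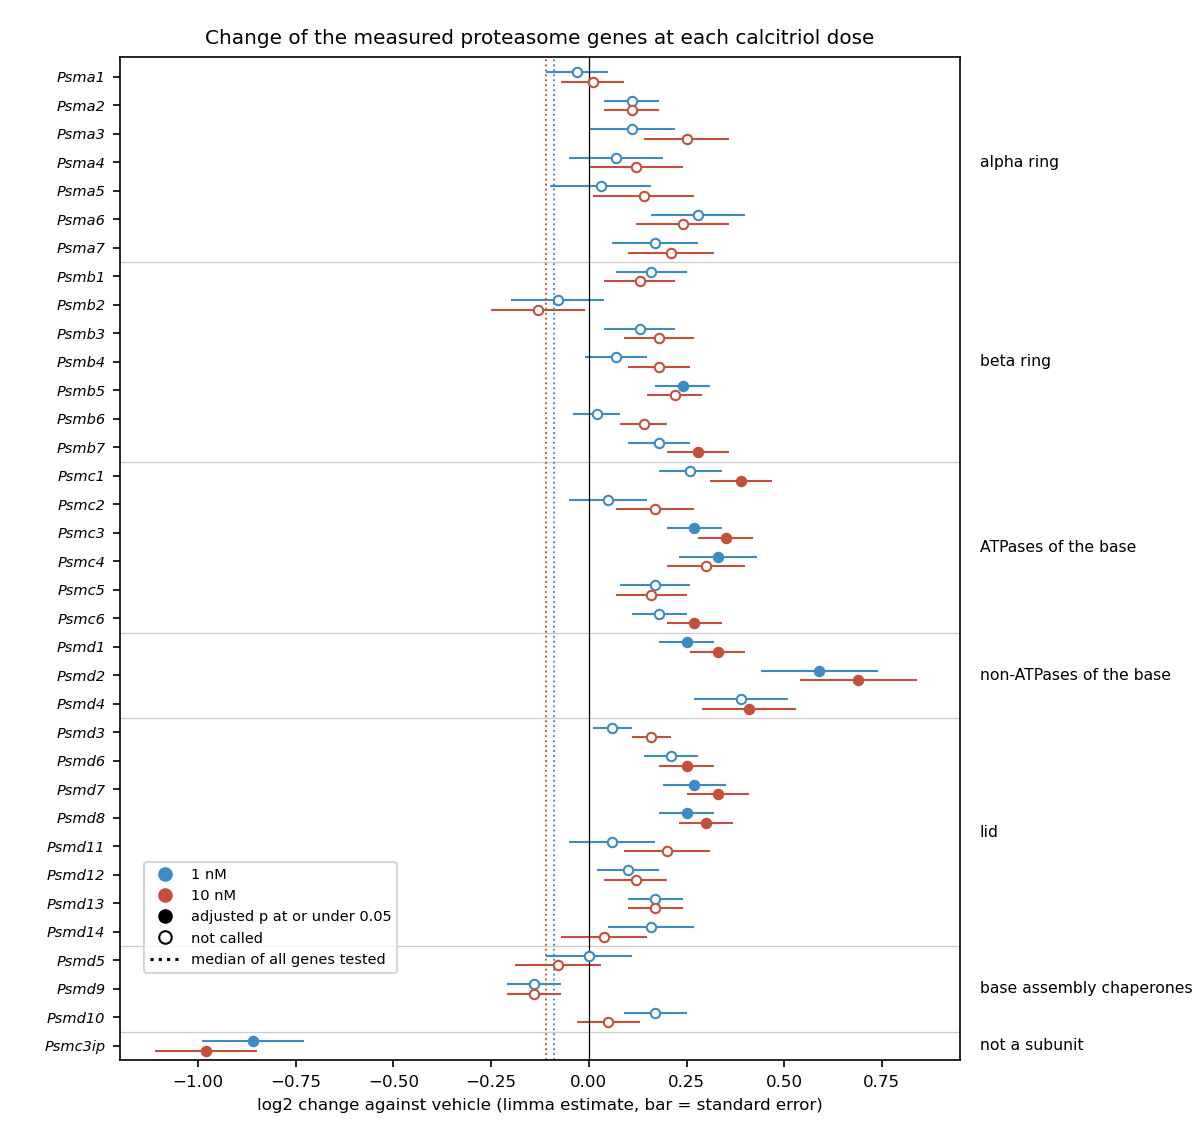
Log2 change of each of the 35 tested genes at 1 nM (blue) and 10 nM (red) against vehicle, grouped by role; bars are the standard errors of the limma fit, filled points have an adjusted p at or under 0.05, and dotted lines mark the median of all genes at -0.09 and -0.11. Most points of the regulatory particle lie between 0.05 and 0.41, Psmd2 lies at 0.59 and 0.69, and Psmc3ip lies apart at -0.86 and -0.98.

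The base of the regulatory particle held most of the calls. Its 3 non-ATPase subunits that met the name rule had the highest median change of the roles. It was 0.39 at 1 nM, where 2 of 3 rose, and 0.41 at 10 nM, where 3 of 3 rose. Adrm1, a ubiquitin receptor of the base whose name the rule does not match, changed by 0.19 ± 0.07 and 0.20 ± 0.07 and was not called. Psmd2 encodes the scaffold subunit that receives ubiquitin shuttle proteins. Its level was 3.25, 3.82 and 3.84 in vehicle, 4.19, 4.21 and 4.28 at 1 nM and 4.37, 4.32 and 4.29 at 10 nM. Each of the 6 treated arrays lay above each vehicle array, and vehicle replicate 1 was the lowest. The change was 0.59 ± 0.15 (SE), a 1.5-fold rise, at 1 nM (adjusted p = 0.0300) and 0.69 ± 0.15, a 1.61-fold rise, at 10 nM (adjusted p = 0.0123). In the 9 fits that left out 1 array, the change of Psmd2 ran from 0.39 to 0.69 at 1 nM and from 0.49 to 0.79 at 10 nM. Its probe lies on chromosome 16 at 20663355 to 20663414 (mm9). Within slide 1 the change of Psmd2 was 0.65 and 0.83 at the 2 doses, and within slide 2 it was 0.40 and 0.47. Each of these fits has an arm of 1 array (the treated arms on slide 1; vehicle 3 and 10 nM 2 on slide 2). With slide as a block the change missed the threshold (adjusted p = 0.0847 and 0.0512).

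Psmd1 encodes the other large scaffold of the base. It stood at 4.65, 4.51 and 4.49 in vehicle, at 4.83, 4.84 and 4.73 at 1 nM and at 4.89, 4.86 and 4.91 at 10 nM. The vehicle arrays were all lower than the treated arrays, and the rise was 0.25 ± 0.07 (adjusted p = 0.0363) and 0.33 ± 0.07 (adjusted p = 0.00866). Psmd4, a ubiquitin receptor of the base, had levels of 4.38, 4.79 and 4.69 in vehicle, 4.91, 5.06 and 5.05 at 1 nM and 4.91, 5.06 and 5.12 at 10 nM. Its groups did not overlap either, and its change of 0.39 ± 0.12 missed the threshold at 1 nM (adjusted p = 0.0561) while 0.41 ± 0.12 passed it at 10 nM (adjusted p = 0.0383). The probes of Psmd1 and Psmd4 lie on chromosome 1 at 88035777 to 88035836 and on chromosome 3 at 94836627 to 94836686.

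The 6 ATPases form the ring that unfolds substrates and threads them into the core. Their median change was 0.22 at 1 nM, where Psmc3 and Psmc4 rose, and 0.28 at 10 nM, where Psmc1, Psmc3 and Psmc6 rose. Psmc3 was at 6.19, 6.38 and 6.29 in vehicle, 6.51, 6.57 and 6.59 at 1 nM and 6.56, 6.70 and 6.66 at 10 nM. No treated array fell into the vehicle range, and the change was 0.27 ± 0.07 (adjusted p = 0.0344) and 0.35 ± 0.07 (adjusted p = 0.00891). A second probe for Psmc3, on chromosome 2 at 90898252 to 90898311, gave the same result: 4.88, 5.02 and 4.85 in vehicle, 5.10, 5.24 and 5.21 at 1 nM and 5.26, 5.30 and 5.27 at 10 nM, with changes of 0.27 and 0.36 and a call at each dose when every probe was fitted (adjusted p = 0.0342 and 0.00747). Its sequence is shown because the pair of Psmc3 probes gave the same calls. Both probes read the same RNA samples, so the second repeats the measurement and adds no replicate.

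Psmc3 probe: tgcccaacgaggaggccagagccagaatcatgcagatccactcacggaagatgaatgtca

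Psmc1 also has a pair of probes. The brighter, on chromosome 12 at 101361515 to 101361574, read 5.22, 5.18 and 5.17 in vehicle, 5.31, 5.52 and 5.53 at 1 nM and 5.51, 5.68 and 5.55 at 10 nM. The vehicle arrays were tight and lay below all others. The change was 0.26 ± 0.08 at 1 nM (adjusted p = 0.0617) and 0.39 ± 0.08 at 10 nM (adjusted p = 0.0105), and the dimmer probe gave 0.21 and 0.28 (adjusted p = 0.0883 and 0.0245). Psmc6 levels were 3.01, 2.85 and 2.85 in vehicle, 3.06, 3.14 and 3.04 at 1 nM and 3.12, 3.20 and 3.19 at 10 nM. The groups were close but did not overlap, and the change at 10 nM was 0.27 ± 0.07 (adjusted p = 0.0254). Psmc4 read 2.88, 2.94 and 2.83 in vehicle, 3.01, 3.30 and 3.32 at 1 nM and 3.11, 3.27 and 3.17 at 10 nM. It passed the threshold at 1 nM with 0.33 ± 0.10 (adjusted p = 0.0483) and missed it at 10 nM with 0.30 ± 0.10 (adjusted p = 0.0535). Psmc2 and Psmc5 were not called; their changes were 0.05 and 0.17 at 1 nM and 0.17 and 0.16 at 10 nM.

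**Figure D2:**
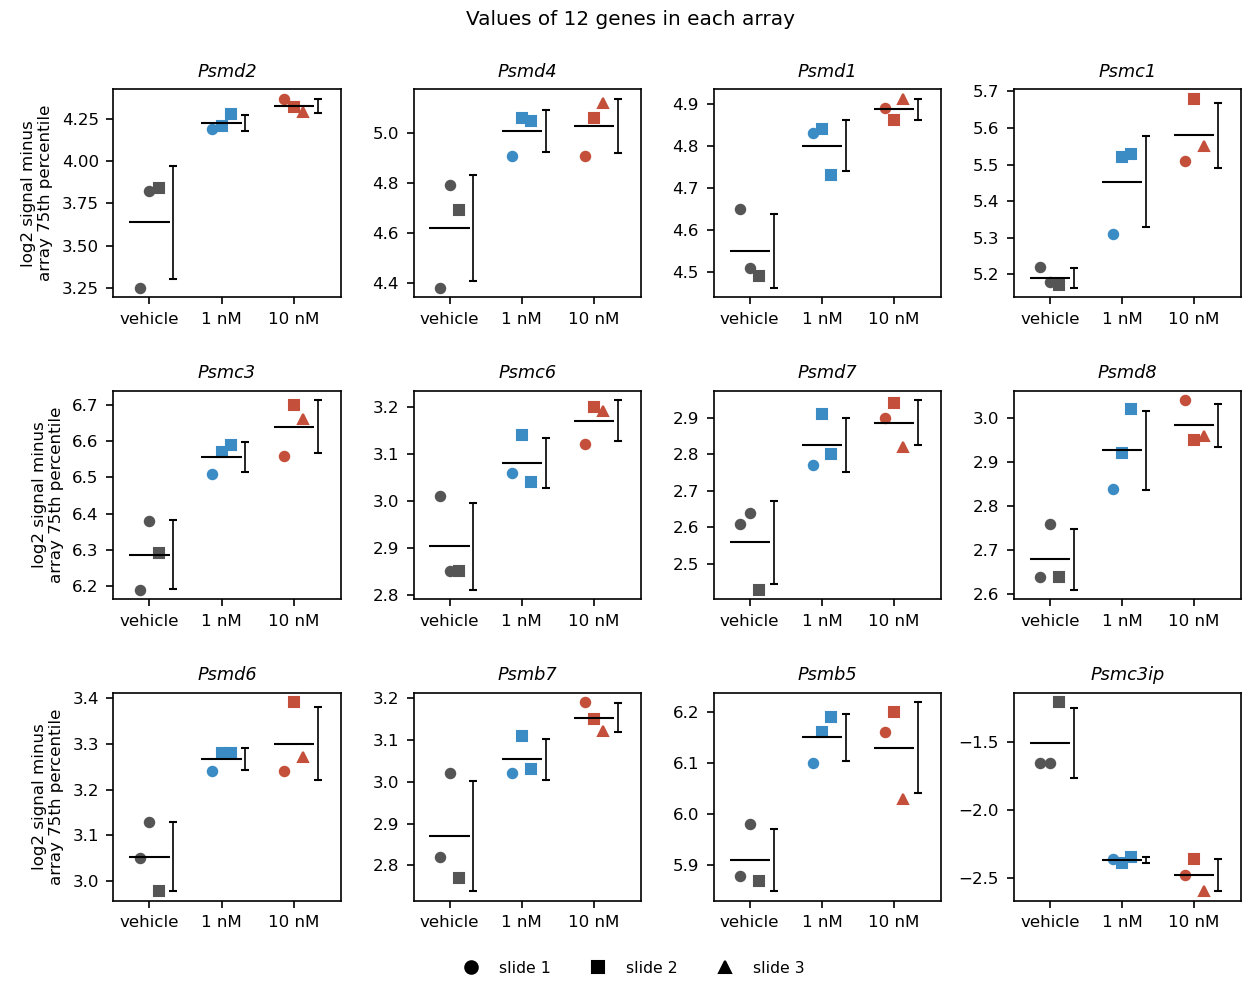
Level (log2 signal minus the array's 75th percentile) in each array for 11 of the 12 subunits called at either dose (Psmc4 is not shown) and for Psmc3ip; lines are group means, bars are SD (n = 3), symbols give the slide, and each panel has its own scale. In the subunit panels the treated points lie above the vehicle points, except that the 1 nM points of Psmb7 touch the vehicle range, while Psmc3ip lies lower in both treated groups.

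The lid carries the deubiquitinase Psmd14 and its partners. The 8 measured lid subunits that met the name rule had a median change of 0.16 at 1 nM and 0.19 at 10 nM. Psmd7 and Psmd8 rose at 1 nM, and Psmd6, Psmd7 and Psmd8 at 10 nM. Psmd7, the inactive partner of Psmd14, was at 2.61, 2.64 and 2.43 in vehicle, 2.77, 2.91 and 2.80 at 1 nM and 2.90, 2.94 and 2.82 at 10 nM. Again no treated array entered the vehicle range, and the change was 0.27 ± 0.08 (adjusted p = 0.0486) and 0.33 ± 0.08 (adjusted p = 0.0187). Psmd8, a structural lid subunit, read 2.64, 2.76 and 2.64 in vehicle, 2.84, 2.92 and 3.02 at 1 nM and 3.04, 2.95 and 2.96 at 10 nM, and rose by 0.25 ± 0.07 (adjusted p = 0.0463) and 0.30 ± 0.07 (adjusted p = 0.0169). Psmd6 levels were 3.05, 3.13 and 2.98 in vehicle, 3.24, 3.28 and 3.28 at 1 nM and 3.24, 3.39 and 3.27 at 10 nM. Its change was 0.21 ± 0.07 at 1 nM (adjusted p = 0.0694) and 0.25 ± 0.07 at 10 nM (adjusted p = 0.0351). The other 5 lid genes, Psmd3, Psmd11, Psmd12, Psmd13 and Psmd14, had changes of 0.06 to 0.17 at 1 nM and 0.04 to 0.20 at 10 nM and were not called. Psmd14 itself, the enzyme of the lid, had a change of 0.16 ± 0.11 and 0.04 ± 0.11.

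Of the 14 core particle genes tested, 1 rose at each dose, Psmb5 at 1 nM and Psmb7 at 10 nM, with median changes of 0.11 and 0.16. None of the 7 alpha ring genes, whose products form the gate of the barrel, was called. At unadjusted p under 0.05 the limma fit also gave 0 of 7 at each dose, against 34.2% and 40.6% of all genes. A count out of 7 is small to set against those shares, and the smallest unadjusted p were 0.0502 at 1 nM and 0.0528 at 10 nM. The alpha gene with the smallest p at 1 nM was Psma6, at 2.87, 3.14 and 2.97 in vehicle, 3.18, 3.35 and 3.29 at 1 nM and 3.01, 3.34 and 3.36 at 10 nM. Its 1 nM arrays lay above the vehicle arrays and its 10 nM arrays overlapped them, with changes of 0.28 ± 0.12 (adjusted p = 0.147) and 0.24 ± 0.12 (adjusted p = 0.176). At 10 nM it was Psma3, with 5.33, 4.98 and 5.30 in vehicle, 5.20, 5.38 and 5.35 at 1 nM and 5.41, 5.49 and 5.45 at 10 nM. The 10 nM arrays were the highest, and the change was 0.25 ± 0.11 (adjusted p = 0.128). Psma1 had the smallest changes of the ring, -0.03 ± 0.08 and 0.01 ± 0.08. The dimmer of the Psma4 probes gave 0.23 ± 0.10 and 0.24 ± 0.10 (limma adjusted p = 0.149 and 0.109 in the fit of every probe). The brighter, which stood for the gene, gave 0.07 ± 0.12 and 0.12 ± 0.12.

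The beta ring holds the proteolytic sites, in the subunits Psmb5, Psmb6 and Psmb7. Psmb5, the chymotrypsin-like subunit, read 5.88, 5.98 and 5.87 in vehicle, 6.10, 6.16 and 6.19 at 1 nM and 6.16, 6.20 and 6.03 at 10 nM on its brighter probe. The groups did not overlap. The change of 0.24 ± 0.07 passed the threshold at 1 nM (adjusted p = 0.0453) and that of 0.22 ± 0.07 missed it at 10 nM (adjusted p = 0.0515). The other Psmb5 probe, on chromosome 14 at 55233161 to 55233220, had levels of 3.53, 3.71 and 3.57 in vehicle, 3.64, 3.79 and 3.60 at 1 nM and 3.84, 3.73 and 3.68 at 10 nM. Its groups overlapped, its changes were 0.07 ± 0.09 and 0.15 ± 0.09, and it was not called at either dose (adjusted p = 0.575 and 0.246 in the fit of every probe). Its sequence is shown because the pair of Psmb5 probes differed in call.

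Psmb5 probe: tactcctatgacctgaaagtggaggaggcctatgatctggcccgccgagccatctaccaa

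Psmb7, the trypsin-like subunit, was at 2.82, 3.02 and 2.77 in vehicle, 3.02, 3.11 and 3.03 at 1 nM and 3.19, 3.15 and 3.12 at 10 nM. The 10 nM arrays lay above vehicle, the lowest 1 nM array equalled the highest vehicle array at the precision given, and the change was 0.18 ± 0.08 (adjusted p = 0.146) and 0.28 ± 0.08 (adjusted p = 0.0305). Psmb6, the caspase-like subunit, had changes of 0.02 ± 0.06 and 0.14 ± 0.06 and was not called. Psmb2, a structural beta subunit, was the sole core gene with a negative estimate at 10 nM, -0.13 ± 0.12, with overlapping groups.

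No member was called between the doses. Between 10 nM and 1 nM, 0 of 35 genes were called, and limma gave 0 of 35 at unadjusted p under 0.05, where 3.79% of all genes were called after adjustment (1.58% as higher and 2.21% as lower) and 12.2% had an unadjusted p under 0.05. The estimates ran from -0.12 to 0.14 with a median of 0.04, and 23 of 35 were above 0, against 48.4% of all genes. The groups were apart for 8 genes in the higher direction and 1 in the lower, against 12.6% and 11.4% of all genes. The smallest p of each role belonged to Psma3 (0.14 ± 0.11), Psmb6 (0.12 ± 0.06), Psmc1 (0.13 ± 0.08), Psmd1 (0.08 ± 0.07), Psmd3 (0.10 ± 0.05) and Psmd10 (-0.12 ± 0.08), with adjusted p from 0.60 to 0.90. Cyp24a1 rose over the same step by 4.84 ± 0.22 (adjusted p = 0.000155). Since both doses were set against the same vehicle arrays, their changes for these genes share those arrays.

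The particles were then compared within each array. For each gene the vehicle mean was subtracted, and the median over the 14 core genes and over the 17 regulatory genes was taken, so vehicle arrays lie near 0 by construction. The core median was 0.02, 0.06 and -0.02 in vehicle, 0.05, 0.18 and 0.14 at 1 nM and 0.11, 0.24 and 0.15 at 10 nM. That of the regulatory particle was -0.00, 0.08 and -0.05 in vehicle, 0.13, 0.24 and 0.21 at 1 nM and 0.22, 0.30 and 0.28 at 10 nM. Each treated array lay above each vehicle array for the regulatory particle, whereas for the core the lowest 1 nM array lay within the vehicle range. Their difference, which a constant added to an array cannot move, was -0.02, 0.02 and -0.03 in vehicle (-0.01 ± 0.03, SD, n = 3), 0.08, 0.07 and 0.07 at 1 nM (0.07 ± 0.01) and 0.10, 0.06 and 0.13 at 10 nM (0.10 ± 0.03). The regulatory particle was thus higher relative to the core in all 6 treated arrays. This is a description with no test, since genes are not replicates of a condition.

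**Figure D3:**
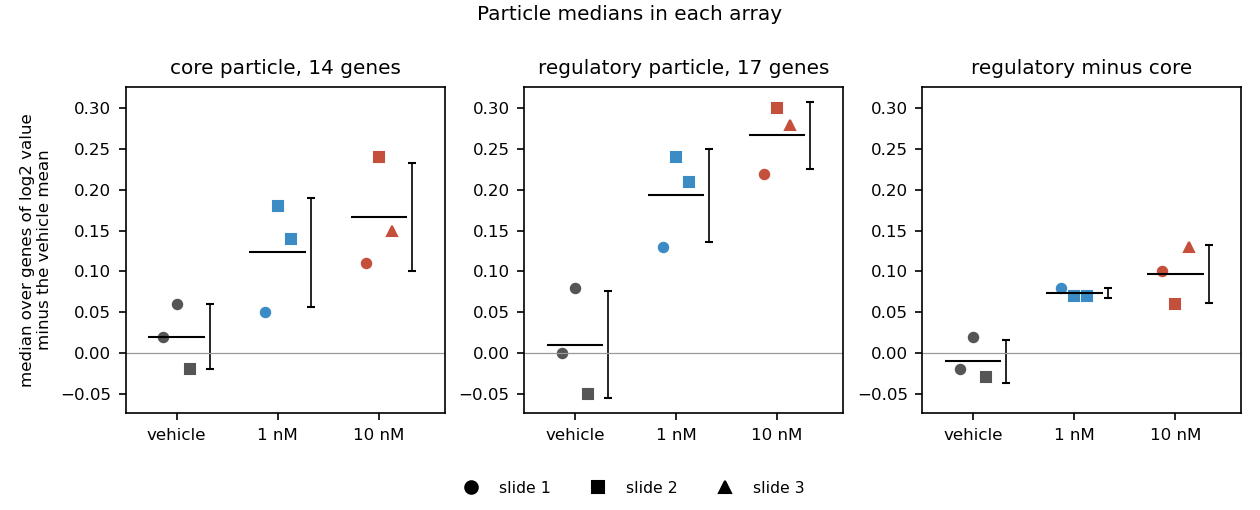
Median over genes of the log2 level minus the vehicle mean, in each array, for the core particle (left), the regulatory particle (middle) and their difference (right), on a common axis; lines are group means, bars SD (n = 3), symbols the slide. The regulatory medians of the treated arrays run from 0.13 to 0.30 and those of the core from 0.05 to 0.24, and the differences run from 0.06 to 0.13 in treated and from -0.03 to 0.02 in vehicle arrays.

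In counts, 6 of 17 regulatory genes (35.3%) rose at 1 nM and 9 of 17 (52.9%) at 10 nM, against 1 of 14 core genes (7.14%) at each dose. Adrm1 and Sem1 also belong to the regulatory particle, but the rule does not match their names. They are outside the 17 and were not called at either dose (Adrm1 0.19 and 0.20, Sem1 -0.01 and 0.03). Over all genes tested, 11.7% were called as higher at 1 nM and 15.3% at 10 nM. The groups did not overlap, with treated arrays higher, for 12 regulatory and 3 core genes at 1 nM, where this held for 19.7% of all genes, and for 12 and 6 at 10 nM, where it held for 21.7%. The median change of the regulatory particle was 0.21 and 0.27. The core median was lower than the regulatory median by 0.10 at 1 nM and by 0.11 at 10 nM. With quantile normalization this gap fell to 0.05 and 0.03, and in the submitters' table to 0.02 and 0.04.

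The number of calls depended on the arrays and the scaling, more so at 1 nM. With slide as a block, 0 of the 34 subunit and chaperone genes rose at 1 nM and 5 at 10 nM, where 10.1% and 12.8% of all genes were called as higher. Within slide 1 (1 treated array per dose) 0 rose at either dose, against 2.76% and 5.35% of all genes. Within slide 2 (vehicle 3 as the sole vehicle array) 10 rose at 1 nM and 7 at 10 nM, against 13.5% of all genes at each dose, with 37.4% and 35.3% of all genes lower. Without the vehicle 3 array 1 rose at 1 nM, against 13.2% of all genes, and 8 at 10 nM, against 17.1%. Leaving out any other single array but vehicle 2 gave 0 to 2 at 1 nM, and at 10 nM leaving out vehicle 1 gave 6 and 10 nM 2 gave 5. Within slide 1, 26 of 34 estimates were above 0 at 1 nM and 27 at 10 nM, and the median of the 34 genes stood 0.08 and 0.04 above that of all genes. Within slide 2, 31 and 32 were above 0, and the median stood 0.40 and 0.44 above. When arrays were set to equal medians, the median of all genes moved from -0.09 to 0.37 at 1 nM and from -0.11 to 0.39 at 10 nM. Of all genes, 4.24% were then called as higher and 2.68% as lower at 1 nM, and 7.63% and 3.86% at 10 nM. Relative to all genes, the median of the 34 genes stood 0.26 and 0.29 higher with the 75th percentile and 0.28 and 0.31 higher with the median, but 0.07 and 0.08 higher in the submitters' table and 0.02 and 0.03 higher with quantile normalization.

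**Figure D4:**
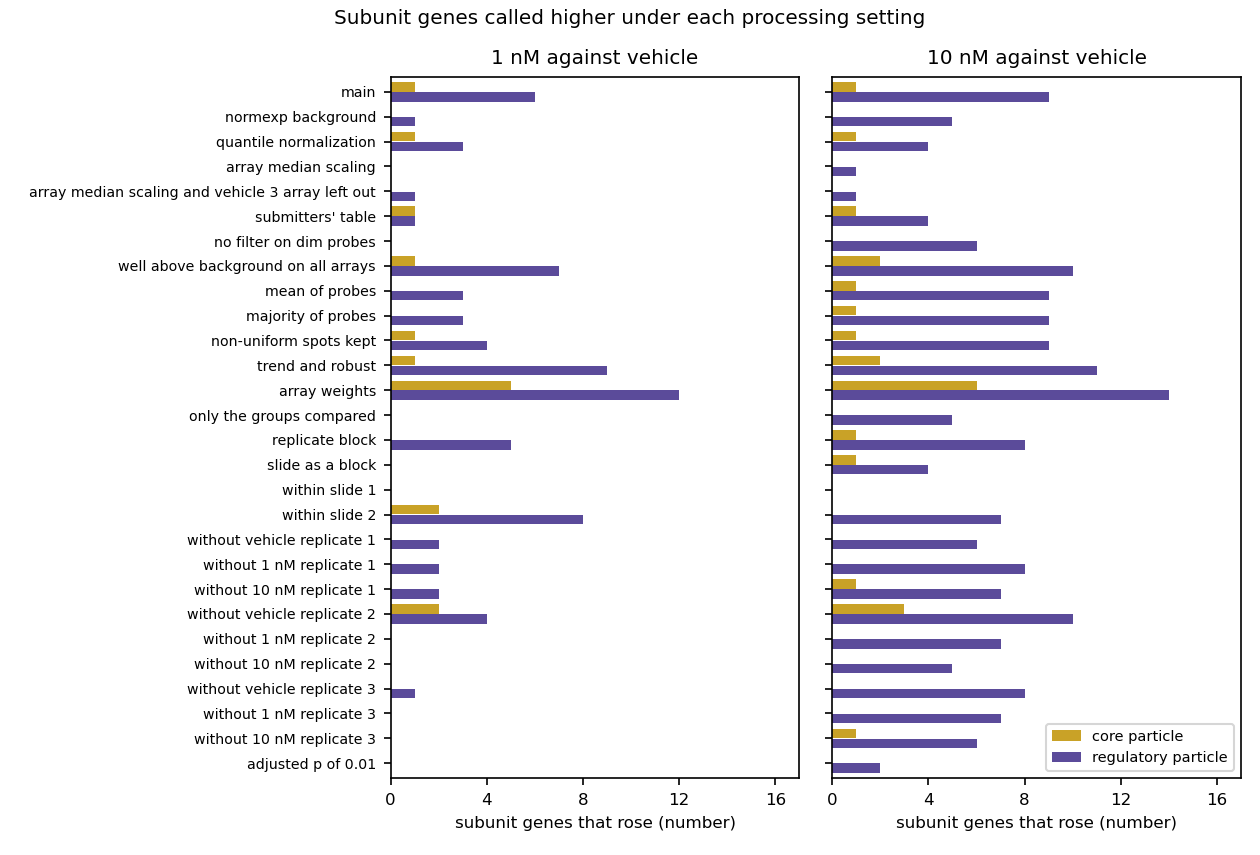
Number of core particle (gold, 14 tested in the main setting) and regulatory particle (purple, 17) genes that rose under each processing setting, at 1 nM (left) and 10 nM (right). At 10 nM the regulatory count runs from 0 within slide 1 to 14 with array weights, and at 1 nM from 0 to 12.

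At 10 nM, Psmc1, Psmc3, Psmd1 and Psmd2 stayed called in each of the 9 fits that left out 1 array. Here and below, the 25 alternatives counted for a gene keep the threshold of 0.05. Over these 25, Psmd2 stayed called in 23, Psmc1 and Psmc3 in 22 and Psmd1 in 19. At a threshold of 0.01 on the limma adjusted p, Psmc3 and Psmd1 stayed called, while Psmd2 (0.0123) and Psmc1 (0.0105) did not. Psmd7 and Psmd8 stayed called in 16, Psmd4 in 12, Psmc6 in 10, Psmd6 in 9 and Psmb7 in 7. At 1 nM, Psmd2 stayed called in 14 of 25, and the other 6 in 5 to 9. The 1 nM call of Psmd2 was lost without any single 1 nM array and without 10 nM 2 or 3. For those 6, leaving out either array 2 or array 3 of the 1 nM group ended the call, and the estimates without 1 array stayed between 0.20 and 0.42.

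The promoters of 5 members that rose are shown, picked partly because they carry motifs searched for. The motifs are those of factor families known for housekeeping and proteasome genes. RefSeq promoters (GRCm38.p6, the 250 bases before each start) were matched for 30 of the 37 genes. They were searched on both strands for 9 motifs, of which CCGGAAG, TGACNNNGC and CCAAT are in capitals below, in either orientation. CCGGAAG is the core of an ETS factor site, TGACNNNGC that of the antioxidant response element that Nfe2l1 and Nfe2l2 bind, and CCAAT that of an NF-Y site.

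Psmd2 promoter, chr16:20651402-20651651, plus strand: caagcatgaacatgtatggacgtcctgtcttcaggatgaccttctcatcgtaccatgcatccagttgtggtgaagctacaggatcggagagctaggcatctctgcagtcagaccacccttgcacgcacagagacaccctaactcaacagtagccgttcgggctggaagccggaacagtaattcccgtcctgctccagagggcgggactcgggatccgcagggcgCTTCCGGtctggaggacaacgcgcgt

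Psmc1 promoter, chr12:100109952-100110201, plus strand: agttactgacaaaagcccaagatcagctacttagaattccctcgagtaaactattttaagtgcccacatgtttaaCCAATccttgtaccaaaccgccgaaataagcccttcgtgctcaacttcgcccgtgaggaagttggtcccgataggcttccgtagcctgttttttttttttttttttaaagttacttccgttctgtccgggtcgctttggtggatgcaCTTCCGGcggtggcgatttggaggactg

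Psmd4 promoter, chr3:95042615-95042864, minus strand: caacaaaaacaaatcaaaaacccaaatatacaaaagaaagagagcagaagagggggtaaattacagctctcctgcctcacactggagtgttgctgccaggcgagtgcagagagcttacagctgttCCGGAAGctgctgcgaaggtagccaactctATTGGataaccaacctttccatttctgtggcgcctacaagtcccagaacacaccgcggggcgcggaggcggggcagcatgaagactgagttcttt

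Psmc6 promoter, chr14:45329574-45329823, plus strand: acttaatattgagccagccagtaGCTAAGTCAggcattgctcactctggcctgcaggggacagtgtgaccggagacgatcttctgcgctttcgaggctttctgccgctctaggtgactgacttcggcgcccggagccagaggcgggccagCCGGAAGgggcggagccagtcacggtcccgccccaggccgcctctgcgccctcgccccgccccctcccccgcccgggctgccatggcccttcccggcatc

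Psmb5 promoter, chr14:54617996-54618245, minus strand: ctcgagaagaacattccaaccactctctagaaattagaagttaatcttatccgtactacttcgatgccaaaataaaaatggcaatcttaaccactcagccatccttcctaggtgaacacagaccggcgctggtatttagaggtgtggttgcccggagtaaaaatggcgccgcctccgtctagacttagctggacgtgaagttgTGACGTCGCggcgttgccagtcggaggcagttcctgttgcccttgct

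CCGGAAG was found in the promoters of 10 of the 30 genes, among them 8 of 14 regulatory and 1 of 12 core genes with a promoter, and in 6.91% of all 32851 promoters. Of the 9 risen genes with a promoter 5 held it (Psmc1, Psmc6, Psmd2, Psmd4 and Psmd6) and Psmb5, Psmc4, Psmd1 and Psmd8 did not, and of the 21 that did not rise 5 held it (Psma6, Psmc2, Psmd11, Psmd12 and Psmc3ip). Its capitals begin 26 bases before the start in Psmd2, 28 in Psmc1, 100 in Psmc6 and 125 in Psmd4. CCAAT was found in 7 of 12 core and 4 of 14 regulatory genes, and in 33.8% of all promoters. TGACNNNGC was found in 5 of the 30 genes (Psmb5, Psmb6, Psmc6, Psmd9 and Psmd12) and in 10.2% of all promoters. AGGTCA followed after 3 bases of any kind by another AGGTCA, a direct repeat of the kind bound by the vitamin D receptor with its retinoid partner, was in 0 of the 30 and in 0.00609% of all. This exact string was in only 2 of the 32851 promoters, so its absence from 30 genes cannot show that sites for the receptor are lacking. The remaining motifs were CCGCCC in 17 genes (32.7% of all promoters), TGANNNNGC in 13 (35.2%), CCGGAAGTG in 2 (1.44%), TGACTCAGC in 0 (0.390%) and GGAAGTGA in 0 (2.62%). A match is a description of these letters only, with no test.

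None of the chaperones of base assembly was called. Psmd5, Psmd9 and Psmd10 each hold an assembly intermediate of the ATPase ring, and 0 of 3 were called at either dose by limma, or at unadjusted p under 0.05 (34.2% and 40.6% of all genes), a count too small to set against those shares. Their median change was 0.00 and -0.08. Psmd10 read 0.66, 0.87 and 0.65 in vehicle, 0.86, 0.93 and 0.90 at 1 nM and 0.74, 0.79 and 0.81 at 10 nM, with overlap, and its changes were 0.17 ± 0.08 (adjusted p = 0.166) and 0.05 ± 0.08. The other Psmd10 probe had the opposite sign, -0.10 ± 0.12 and -0.07 ± 0.12. Psmd9 was at 0.12, 0.28 and 0.08 in vehicle, -0.01, 0.01 and 0.05 at 1 nM and 0.01, -0.02 and 0.06 at 10 nM. Its treated arrays all lay below vehicle, and the change was -0.14 ± 0.07 at each dose (adjusted p = 0.218 and 0.180), while its other probe gave 0.26 ± 0.18 at each dose. For Psmd9 and Psmd10 no direction can therefore be given.

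Psmc3ip was the member with the largest change. Its level was -1.66, -1.66 and -1.21 in vehicle, -2.36, -2.39 and -2.35 at 1 nM and -2.48, -2.36 and -2.60 at 10 nM. The treated arrays lay well below all vehicle arrays, and vehicle 3 was the highest. The change was -0.86 ± 0.13 at 1 nM, 1.82-fold lower (adjusted p = 0.00261), and -0.98 ± 0.13 at 10 nM, 1.97-fold lower (adjusted p = 0.00101). It stayed called in 23 of 25 alternatives at 1 nM and 24 of 25 at 10 nM, among them each fit without 1 array. With arrays set to equal medians its change was -0.37 (adjusted p = 0.395) and -0.45 (adjusted p = 0.277). Its probe, on chromosome 11 at 100954219 to 100954278, is shown because a search by name would count this gene as a falling ATPase.

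Psmc3ip probe: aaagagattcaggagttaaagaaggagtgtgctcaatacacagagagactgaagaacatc

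The immunoproteasome subunits replace the catalytic beta subunits in antigen-presenting and interferon-treated cells, Psmb8 in the place of Psmb5, Psmb9 of Psmb6 and Psmb10 of Psmb7. Of these, 2 of 3 fell at each dose, where 11.8% and 14.7% of all genes were called as lower. Psmb8 was at -4.38, -4.20 and -3.63 in vehicle, -5.91, -5.84 and -5.67 at 1 nM and -6.15, -6.00 and -6.84 at 10 nM, far down the brightness range of the array. Its groups did not overlap, and it fell by 1.74 at 1 nM (SE 0.26, adjusted p = 0.0024) and fell by 2.26 at 10 nM (adjusted p = 0.000447). At 10 nM both Psmb8 and Psmb9 were well above background on 2 of 3 arrays, so their 10 nM levels rest partly on a signal not well above background. Psmb9 read -4.35, -4.24 and -3.12 in vehicle, -5.41, -5.32 and -5.67 at 1 nM and -5.11, -5.31 and -6.25 at 10 nM, and fell by 1.57 (SE 0.40, adjusted p = 0.0259) and 1.66 (adjusted p = 0.0165). The vehicle 3 array, which stood apart, was the highest for both, and the 1 nM call of Psmb9 was lost without any single 1 nM array. With quantile normalization and in the submitters' table both kept the negative sign but missed the threshold, with estimates of -0.67 and -0.38 for Psmb8 and -0.71 and -0.36 for Psmb9 at 1 nM. Psmb10 was at 1.87, 1.97 and 1.86 in vehicle, 1.57, 1.79 and 1.71 at 1 nM and 1.75, 1.72 and 1.56 at 10 nM, without overlap, and its changes of -0.21 ± 0.09 (adjusted p = 0.128) and -0.23 ± 0.09 (adjusted p = 0.0877) missed the threshold.

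**Figure D5:**
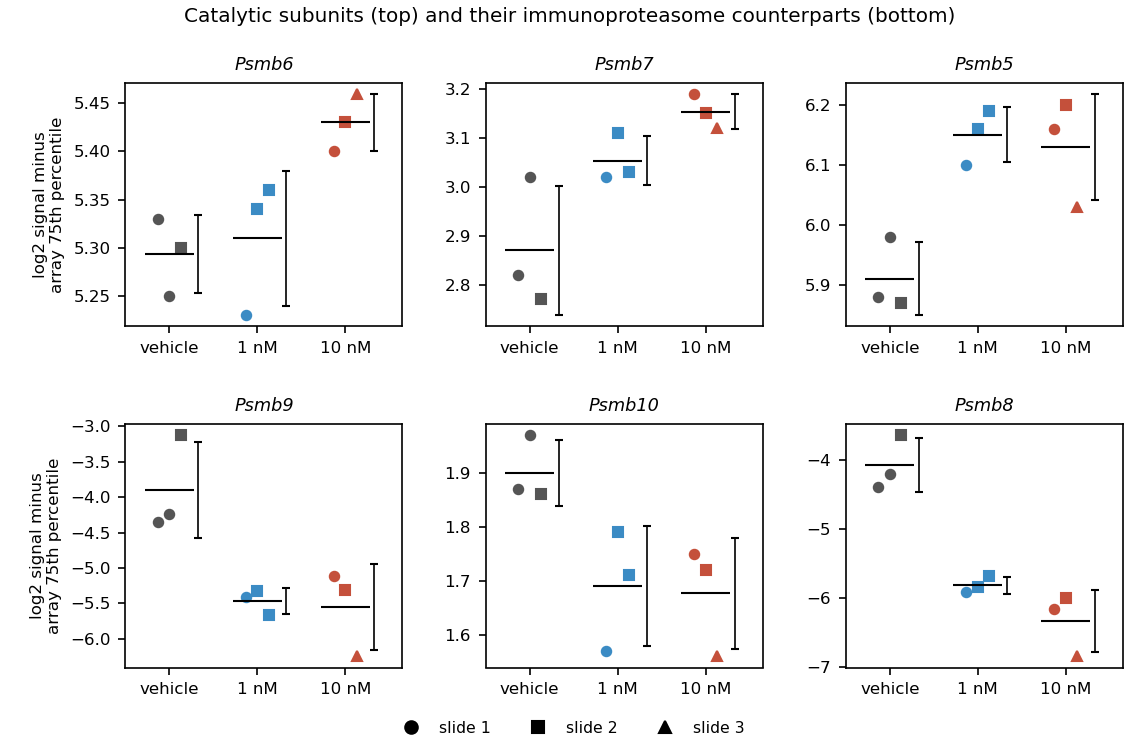
Level (log2 signal minus the array's 75th percentile) in each array of the constitutive catalytic subunits (top row) and the immunoproteasome subunit that takes the place of each (bottom row); lines are group means, bars SD (n = 3), symbols the slide, and each panel has its own scale. Vehicle arrays are the highest for Psmb9, Psmb10 and Psmb8, and the lowest for Psmb5.

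Other genes of the pathway were read from 4 further lists. Over all genes, 23.5% were called at 1 nM (11.8% as lower) and 30.0% at 10 nM (14.7% as lower), and these lists are short. Of 4 tested genes for activators and the inhibitor of the core, 1 fell at each dose: Psme1, a subunit of the interferon-inducible activator, was at 1.84, 1.84 and 1.85 in vehicle, 1.53, 1.59 and 1.59 at 1 nM and 1.61, 1.53 and 1.52 at 10 nM, and fell by 0.27 (SE 0.06, adjusted p = 0.0126) and 0.29 (adjusted p = 0.00725), although with arrays set to equal medians its estimates were 0.22 and 0.24. Of 11 other assembly and associated factors, 1 fell at 1 nM, the core chaperone gene Psmg4 (-0.29 ± 0.08, adjusted p = 0.0304; 0.20 with arrays set to equal medians), and 0 were called at 10 nM, where limma gave the smallest p to Adrm1, a ubiquitin receptor of the base (0.20 ± 0.07, adjusted p = 0.0501), and to Psmg4 (-0.23 ± 0.08, adjusted p = 0.0596).

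Some shuttle and segregase genes, whose products bring substrates to the regulatory particle, rose. Of 12 tested, 3 rose at 1 nM and 4 at 10 nM, and 0 fell, where 11.7% and 15.3% of all genes were called as higher. Zfand5, a proteasome-binding zinc finger protein, read 2.80, 2.64 and 2.61 in vehicle, 3.25, 3.32 and 3.22 at 1 nM and 3.27, 3.33 and 3.25 at 10 nM. The vehicle arrays were clearly apart, and the rise was 0.58 ± 0.07 (adjusted p = 0.000962) and 0.60 ± 0.07 (adjusted p = 0.000617). It has 3 kept probes, and the mean over them gave a change of the opposite sign, -0.89 ± 1.02 at each dose. Nploc4, a cofactor of the segregase Vcp, rose by 0.23 ± 0.06 (adjusted p = 0.0266) and 0.31 ± 0.06 (adjusted p = 0.00571). Vcp itself had a change of 0.22 ± 0.07 (adjusted p = 0.0541) and rose at 10 nM by 0.28 ± 0.07 (adjusted p = 0.0161). Ddi2, the protease that activates Nfe2l1, rose at 1 nM (0.29 ± 0.09, adjusted p = 0.0456), and Zfand2a at 10 nM (0.29 ± 0.09, adjusted p = 0.0455). These calls stayed in 7 and 4 of 25 alternatives, and that of Nploc4 in 9 at 1 nM and 21 at 10 nM.

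Among 10 regulators of proteasome genes, 2 rose and 1 fell at 1 nM, and 3 rose and 1 fell at 10 nM. Over all genes, 23.5% and 30.0% were called at these doses, and 10 genes are few to set against those shares. Nfe2l1, the activator named above, was at -1.22, -1.05 and -0.92 in vehicle, -0.86, -1.0 and -0.89 at 1 nM and -0.89, -1.06 and -0.92 at 10 nM, with overlap and changes of 0.15 ± 0.09 (adjusted p = 0.315) and 0.11 ± 0.09 (adjusted p = 0.421). Nfe2l2, the antioxidant response factor, read 2.82, 2.67 and 2.51 in vehicle, 3.16, 3.22 and 3.27 at 1 nM and 2.94, 3.22 and 3.15 at 10 nM. Its groups did not overlap, and it rose by 0.55 ± 0.11 (adjusted p = 0.00839) and 0.44 ± 0.11 (adjusted p = 0.0180). Stat3 rose by 0.38 ± 0.07 (adjusted p = 0.00534) and 0.46 ± 0.07 (adjusted p = 0.00141), and Ngly1, which deglycosylates Nfe2l1, rose at 10 nM by 0.42 ± 0.13 (adjusted p = 0.0483). The mean over the probes of Stat3 gave 0.33 ± 0.72 and 1.36 ± 0.72 and was not called, and the call of Ngly1 stayed in 3 of 25 alternatives. Maff, a small Maf partner of these factors, fell by 0.49 (SE 0.14, adjusted p = 0.0357) and 0.53 (adjusted p = 0.0216), but with arrays set to equal medians its estimate was -0.00 at each dose, and -0.25 and -0.24 when vehicle 3 was also left out, and its call stayed in 12 and 18 of 25 alternatives. These are changes of messenger RNA only, and protein or proteasome activity was not measured in these arrays.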

How the data were processed

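Total RNA from C2C12 cells was labelled with Cy3 and hybridised to 1-colour Agilent arrays, with 3 biological replicates per group, per the labels; that they are separate cultures was not stated further, so p-values measure the spread between these samples. Scanner files deposited by the authors give linear intensity values per spot, beside columns of other kinds with marks for the state of a spot (control, uneven, saturated, distinct from background). Per the submitters' processing notes, the software was Agilent Feature Extraction, version 11.5.1.1, and limma was used. A table of log2 values for 30094 probes was also deposited, with column medians of 9.65 to 9.72 and correlations of 0.9765 to 0.9894 with the log2 scanner values; how it was normalized is not given in the sources used here, and it served as an alternative.

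The array's 75th percentile of log2 processed signal was subtracted from each value. Control and non-uniform spots were left out, and replicate spots were averaged by probe. A probe had to be well above background throughout at least 1 group (28521 of 39429 passed), and the brightest such probe on average stood for its gene, for 22053 genes. Psmd9, Psmd10 and Psmb5 have probes that disagree. Symbols came from a RefSeq table of GRCm38.p6 by accession for 27655 probes and by symbol for 3717, while 8057 have the name on the array. Positions of probes are on mm9, per the file headers. The groups were fitted together in limma 3.58.1 (R 4.3.3; lmFit and eBayes), without a block, with Benjamini-Hochberg adjustment over all genes and a threshold of 0.05. The fit was tested on simulated data with known changes.

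Members, gene lists, promoter motifs and tests were chosen with earlier results of these data known. Values in each array are given for up to 4 called members of each role with the smallest p, or 1 where none was called, and for members whose probes disagree. Of each pathway list up to 4 called genes are named, or 2 where none was called, and always Psmb8, Psmb9, Psmb10, Nfe2l1, Nfe2l2 and Cyp24a1. The list of ubiquitin genes is not reported here. Alternatives changed the background correction, scaling, filter, probe rule, weights, block, slide, threshold and arrays used. Deviations of same-numbered arrays from their group means correlated at 0.483, 0.330 and 0.141 between 1 nM and 10 nM. They correlated at 0.055, -0.021 and -0.006 between vehicle and 1 nM and at -0.185, -0.193 and -0.420 between vehicle and 10 nM. The arrays 10 nM 2 and 1 nM 3, of unlike number, correlated at 0.309. These arrays share a slide, as do treated arrays 1 and treated arrays 2, while treated arrays 3 share a number only. Vehicle 2 and vehicle 1 share neither number nor slide with 10 nM 3, and correlated with it at 0.409 and 0.309. The parts of pairing by number and of a shared slide in these values were not tested.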

Additional observations from a re-analysis of the deposited data

How the results depend on the processing

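Counts below include Psmc3ip, which fell. At 1 nM 8 of 35 genes were called (23.5% of all genes), but, with the share of all genes in brackets, 2 with normexp background (20.1%), 5 with quantile normalization (21.2%), 0 with array median scaling (6.92%; 2 and 16.4% when vehicle 3 was also left out), 3 in the submitters' table (16.9%), 1 with no filter on dim probes (13.7%), 4 with the mean of probes (21.5%) or their majority, 19 with array weights (54.2%), 1 with only the groups compared (18.1%), 1 with slide as a block (21.9%), 0 within slide 1 (7.22%) and 1 at an adjusted p of 0.01 (6.37% higher and 7.65% lower). At 10 nM 11 were called (30.0%), but 6 with normexp (26.3%), quantile normalization (27.1%), the submitters' table (22.0%), only the groups compared (23.2%) or slide as a block (25.5%), 1 with array median scaling (7.63% higher and 3.86% lower; 2 and 24.5% without vehicle 3), 7 with no filter (18.5%), 21 with array weights (49.8%), 1 within slide 1 (11.6%) and 3 at an adjusted p of 0.01 (19.7%). Without single arrays the counts ran from 1 to 8 at 1 nM (15.5% to 25.2% of all genes) and from 6 to 14 at 10 nM (21.8% to 32.4%). With a replicate block 6 and 10 were called, and between the doses 0. The core minus regulatory median, -0.10 at 1 nM, was -0.06 with normexp and with median scaling without vehicle 3, -0.05 with quantile normalization, -0.02 in the submitters' table, -0.14 with array weights, -0.04 within slide 1 and -0.15 within slide 2, and -0.16 to -0.06 without single arrays. At 10 nM, where it was -0.11, it was -0.03 with quantile normalization, -0.04 in the submitters' table, -0.07 with array weights and -0.14 to -0.08 without single arrays. Between the doses it was -0.01, and 0.02 with normexp and within slide 1. Array median scaling turned Psme1 to 0.22 and 0.24 and Psmg4 to 0.20, and the mean of probes turned Zfand5 to -0.89. The cause of these shifts was not tested. With 3 arrays per group the median standard error of a member's change was 0.08, which limits what can be called among changes of this size.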
